A study of Mus musculus with 3 samples.

Results

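The genes described here are 32 genes of glycolysis and of the response to low oxygen, picked by symbol from a list of both, among the 32285 genes counted in single cells of non-small cell lung cancer in mice. All 32 were found in the gene table by symbol, and none of them was used to sort cells into types. The study compared immune cells after drug treatment, in 1 library for each of 3 groups labelled PBS, PD-L1 and AI-Exo. The labels do not spell these names out, and dose, time, mouse strain, age and tumour model were not given in the sources used here. All 3 groups share the same tissue label, the same droplet chemistry and no stated cell sort. Values are counts of UMIs (unique molecular identifiers, each marking 1 captured transcript), written as CPM, the UMIs of a gene per 1000000 UMIs summed over the cells of a class in a library.

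Glycolysis splits glucose into pyruvate in the cytosol, and lactate dehydrogenase turns that pyruvate into lactate when it does not enter the mitochondria. When oxygen is low, the prolyl hydroxylases that mark HIF-1 alpha for destruction work less well, and the stabilised factor binds hypoxia response elements near genes for glucose uptake, glycolysis, mitophagy and blood vessel growth. Tumours often hold poorly supplied regions, and neutrophils and macrophages that enter them can use the same set of genes.

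The core letters of a hypoxia response element are ACGTG or GCGTG, so the 250 bases before the start of each gene are shown for 8 members called in comparisons of cell classes. RefSeq sequences (build GRCm38.p6) gave 39 promoters for 29 of the 32 members, with no entry for Ndrg1, Slc2a3 and Bnip3l. In windows of 250 bases before to 50 bases after the start, ACGTG was present on either strand in 24 of the 39 member promoters (61.5%) and in 19.6% of 32851 mouse promoters. GCGTG was present in 22 (56.4%) against 32.4% of all promoters, and at least 1 of the 2 motifs, which cannot begin at the same base of a strand, in 32 (82.1%) against 43.8%. A match of 5 letters describes the sequence and does not show binding. The capitals mark ACGTG on either strand, and the palindrome CACGTG counts once on each strand. Slc2a1 lies at chr4:119108495-119108744 (plus strand), Pgk1 at chrX:106186850-106187099 (plus), Ldha at chr7:46845554-46845803 (plus), P4ha1 at chr10:59323046-59323295 (plus), Egln3 at chr12:54203875-54204124 (minus), Bnip3 at chr7:138909507-138909756 (minus), Ankrd37 at chr8:45999851-46000100 (minus) and Vegfa at chr17:46032378-46032627 (minus).
Slc2a1: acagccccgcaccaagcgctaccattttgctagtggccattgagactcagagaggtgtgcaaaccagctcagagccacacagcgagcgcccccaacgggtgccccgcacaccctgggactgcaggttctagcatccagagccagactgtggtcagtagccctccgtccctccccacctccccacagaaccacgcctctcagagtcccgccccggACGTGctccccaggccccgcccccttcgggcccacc
Pgk1: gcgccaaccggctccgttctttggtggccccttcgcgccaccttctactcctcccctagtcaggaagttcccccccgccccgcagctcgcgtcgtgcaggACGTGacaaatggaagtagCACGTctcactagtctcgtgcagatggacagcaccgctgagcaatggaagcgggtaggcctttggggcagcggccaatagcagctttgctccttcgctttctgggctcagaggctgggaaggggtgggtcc
Ldha: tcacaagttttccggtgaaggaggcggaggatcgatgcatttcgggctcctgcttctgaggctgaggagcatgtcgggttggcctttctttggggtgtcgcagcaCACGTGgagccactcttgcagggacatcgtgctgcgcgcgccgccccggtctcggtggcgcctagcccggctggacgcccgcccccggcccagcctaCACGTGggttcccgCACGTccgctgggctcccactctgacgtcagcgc
P4ha1: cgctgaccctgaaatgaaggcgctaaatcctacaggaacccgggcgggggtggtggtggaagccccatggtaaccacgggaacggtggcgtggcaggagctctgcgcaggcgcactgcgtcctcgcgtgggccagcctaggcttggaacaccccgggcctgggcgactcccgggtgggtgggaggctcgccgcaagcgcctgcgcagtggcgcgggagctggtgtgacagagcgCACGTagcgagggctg
Egln3: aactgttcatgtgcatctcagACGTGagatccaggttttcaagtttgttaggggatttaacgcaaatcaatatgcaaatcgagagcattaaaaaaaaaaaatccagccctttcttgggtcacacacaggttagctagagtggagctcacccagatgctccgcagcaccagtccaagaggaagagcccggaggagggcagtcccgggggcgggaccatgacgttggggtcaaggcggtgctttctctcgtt
Bnip3: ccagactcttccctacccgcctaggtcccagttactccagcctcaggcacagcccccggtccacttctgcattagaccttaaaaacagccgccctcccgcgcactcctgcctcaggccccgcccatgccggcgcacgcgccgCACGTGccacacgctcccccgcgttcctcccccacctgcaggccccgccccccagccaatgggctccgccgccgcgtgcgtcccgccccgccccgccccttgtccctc
Ankrd37: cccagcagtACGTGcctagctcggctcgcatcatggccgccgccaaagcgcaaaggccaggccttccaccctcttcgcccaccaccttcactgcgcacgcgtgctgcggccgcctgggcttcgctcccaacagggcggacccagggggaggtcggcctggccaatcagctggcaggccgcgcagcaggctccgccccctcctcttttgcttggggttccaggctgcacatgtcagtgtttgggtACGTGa
Vegfa: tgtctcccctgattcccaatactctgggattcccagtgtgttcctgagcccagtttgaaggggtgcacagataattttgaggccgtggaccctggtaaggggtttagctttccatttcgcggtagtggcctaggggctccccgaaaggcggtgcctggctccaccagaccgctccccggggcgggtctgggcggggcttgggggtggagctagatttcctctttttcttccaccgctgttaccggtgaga
The Ldha and Bnip3 windows hold CACGTG, beginning at -145 and -48 from the start in Ldha and at -108 in Bnip3. Slc2a1 and P4ha1 carry a match close to the start, at -36 and -16. Pgk1 has a pair at -150 and -131 on opposite strands, and Ankrd37 a pair at -241 and -6. The Egln3 match lies at -229. The Vegfa window shown held no ACGTG, while the window of a second annotated Vegfa start held 1 at -211, and the second Ldha window held no ACGTG but 2 matches to GCGTG.

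Barcodes with at least 500 UMIs, at least 200 genes and at most 20% mitochondrial UMIs numbered 9359 (PBS), 9697 (PD-L1) and 10457 (AI-Exo), with medians of 3948 to 4425 UMIs, out of 65997942 to 76512500 UMIs per library. Pairs of libraries shared 23 to 33 barcode sequences. Cells were gated by the share of a marker list detected, and 12.1% to 13.3% of barcodes stayed ungated. The classes used most were Ccl3 Cxcl3-high neutrophils (499 PBS, 420 PD-L1 and 445 AI-Exo cells), mature Ccl3 Cxcl3-low neutrophils (1006, 1618 and 1165), immature granule-rich neutrophils (36, 54 and 160), Arg1-positive macrophages (55, 7 and 14), Arg1-negative C1q macrophages (92, 77 and 76) and tumour-like cells (35, 11 and 28). All values below are listed in that order of libraries. Ccl3-high neutrophils had at least 3 UMIs and 1000 CPM of Ccl3 plus Cxcl3, a cut through a continuous range, with 208 of 1505, 340 of 2038 and 287 of 1610 mature neutrophils between 500 and 2000 CPM. Tumour-like cells were gated on 12 markers, so the levels of these markers describe the gate and do not check it. In each library 10 of 12 were detected, with summed levels of 3130, 2786 and 3235 CPM. The pan-leukocyte gene Ptprc, used in no gate, was at 5.58, 1.77 and 6.32 CPM. In Arg1-negative C1q macrophages it was at 506 to 573 CPM. Cldn4 was at 0 in all 3 libraries of tumour-like cells, Krt7 in PBS, and Phlda2 in PD-L1 and AI-Exo.

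Arg1-positive macrophages and tumour-like cells gave the largest part of their transcripts to these genes. The 32 genes made up 1.34%, 1.16% and 1.23% of all UMIs in Arg1-positive macrophages and 0.964%, 1.02% and 0.901% in tumour-like cells. Ccl3-high neutrophils followed with 0.692%, 0.434% and 0.516%, and B cells had the lowest share, 0.196%, 0.183% and 0.172%. Every library of the first 2 classes lay above every library of the other 16 classes.

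**Figure D1:**
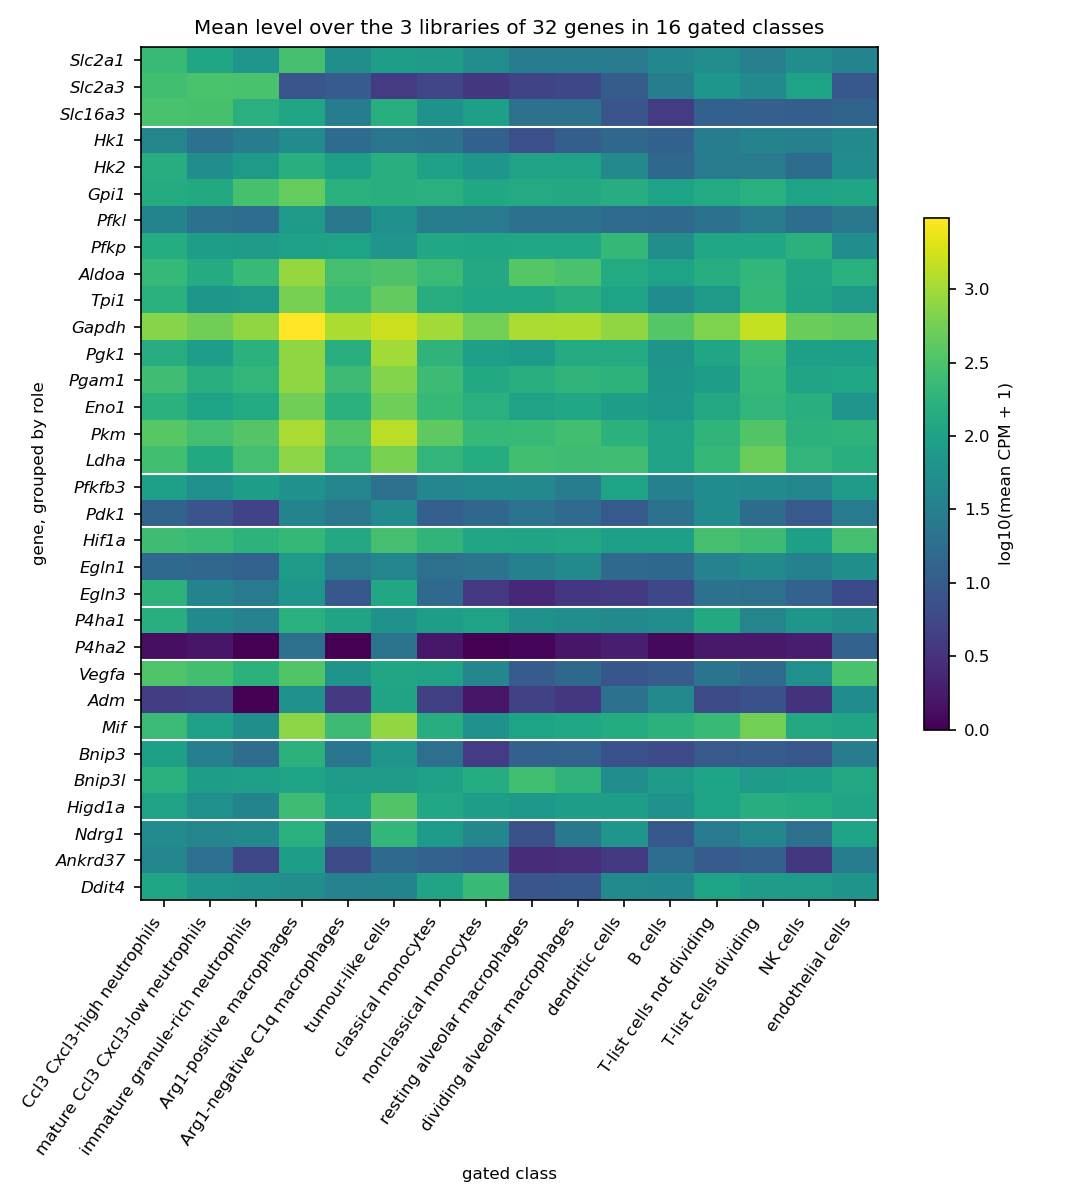
Mean level of each of the 32 genes (vertical axis, grouped by role, white lines between roles) in 16 gated classes (horizontal axis), as log10 of the mean CPM over the 3 libraries plus 1. Arg1-positive macrophages and tumour-like cells form the bright columns for the glycolytic enzymes, while Slc2a3 and Slc16a3 are brightest in the neutrophil columns.

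By mean over the libraries in which a class was used, 16 of the 32 genes were highest in Arg1-positive macrophages and 8 in tumour-like cells. The same count over all genes was not made, and Arg1-positive macrophages held few cells, 55, 7 and 14. Ccl3-high neutrophils led for 2, Slc16a3 and Egln3, and dendritic cells for 2, Pfkp and Pfkfb3. Mature Ccl3-low neutrophils led for Slc2a3, nonclassical monocytes for Ddit4, resting alveolar macrophages for Bnip3l and non-dividing immature T-lineage cells for Pdk1, a class used in 2 libraries only, PBS and PD-L1. For only 6 genes, Pfkp, Aldoa, Gapdh, Pkm, Ldha and Bnip3l, did the leading class stand clear of the next class in every library. That count was not made over all genes either. Gapdh, the glyceraldehyde phosphate dehydrogenase, averaged 3069 ± 330 CPM (SD, n = 3 libraries) in Arg1-positive macrophages and 1596 ± 190 CPM in tumour-like cells, and was lowest in B cells at 363 CPM. Bnip3l, a mitophagy receptor, averaged 265 ± 10.7 CPM in resting alveolar macrophages against 185 ± 21.3 CPM in dividing ones.

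The 2 glucose carriers of the list differed in where they were highest, although Ccl3-high neutrophils held both. Slc2a3, which encodes the high-affinity carrier GLUT3, averaged 310 ± 78.2 CPM in mature Ccl3-low neutrophils, 307 ± 51.2 CPM in immature neutrophils and 265 ± 17.6 CPM in Ccl3-high neutrophils, 3 levels that overlapped. It was at 5.60 to 8.81 CPM in Arg1-positive macrophages and at 2.23 to 3.54 CPM in tumour-like cells. Slc2a1, the widespread carrier GLUT1, averaged 287 ± 155 CPM in Arg1-positive macrophages and 220 ± 66.9 CPM in Ccl3-high neutrophils, which overlapped, and 26.3 CPM in dendritic cells, the lowest class. Slc16a3, the lactate exporter MCT4, averaged 309 ± 58.9 CPM in Ccl3-high and 297 ± 43.8 CPM in mature Ccl3-low neutrophils, also without a clear order.

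Differences between classes were tested on the summed UMIs, with the 3 libraries as replicates and as a block (edgeR quasi-likelihood test, Benjamini-Hochberg adjustment over all genes tested, called at 0.05). The libraries carry different treatments, and nothing in the labels says how many animals each held, so the p-values measure the spread of a class difference over these 3 libraries. Log2 differences are written as the first class over the second, with their standard error.

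Ccl3 Cxcl3-high neutrophils held more transcripts of most of the genes than mature Ccl3-low neutrophils. Of 30 members tested, 23 were higher and 0 lower, where the same test called 6.45% of 8873 genes higher and 2.84% lower. At an unadjusted p of 0.05, 26 members were higher and 0 lower, and DESeq2 called 22 higher and 0 lower. The median log2 difference was 0.88 over the members and -0.02 over all genes tested. In 3 of 3 libraries 26 of the 32 members were higher in Ccl3-high cells, and the same count over all genes was not made. P4ha2 (0 to 1.19 CPM) and Adm (1.29 to 7.22 CPM over both classes) were too low to test.

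Among the transporters, Slc2a1 was at 293, 162 and 204 CPM in Ccl3-high and at 123, 107 and 109 CPM in Ccl3-low cells, without overlap (log2 difference 1.08, SE 0.14, edgeR adjusted p = 0.000334). Slc2a3 was not called, at 277, 274 and 245 CPM against 394, 297 and 240 CPM, and Slc16a3 was not called either, at 246 to 363 CPM against 248 to 333 CPM. Of the 13 glycolytic enzymes, 12 were higher, and Gpi1, the glucose phosphate isomerase, was not called. Hk2, an inducible hexokinase bound to mitochondria, stood at 248, 95.4 and 93.6 CPM against 56.3, 46.6 and 48.1 CPM (1.56, SE 0.20, edgeR adjusted p = 0.00032). The PBS value of Hk2 was the high one, and all 3 lay above the Ccl3-low values. Ldha, which makes lactate, was at 369, 186 and 254 CPM against 177, 92.0 and 124 CPM (1.20, SE 0.11, edgeR adjusted p = 3.86e-05). Gapdh was at 890, 572 and 695 CPM against 590, 418 and 590 CPM (0.59, SE 0.11, edgeR adjusted p = 0.00548), with the PD-L1 value of Ccl3-high cells inside the Ccl3-low range although each library showed the same direction. Tpi1, the triose phosphate isomerase, had a log2 difference of 1.42, Hk1 of 1.04, Pfkl of 1.01, Pgk1 of 0.93, and the others lay between 0.59 and 0.85. Pfkfb3, whose product activates phosphofructokinase, was higher (0.84). Pdk1, the kinase that holds pyruvate back from oxidation in the mitochondria, was not called, at 8.38 to 19.2 CPM against 6.41 to 8.08 CPM.

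The largest differences lay outside the pathway itself. Egln3, an oxygen-sensing prolyl hydroxylase that is itself a HIF target, was at 238, 102 and 193 CPM against 46.3, 25.3 and 39.5 CPM (log2 difference 2.39, SE 0.13, edgeR adjusted p = 3.42e-07). P4ha1, a catalytic subunit of collagen prolyl hydroxylase, was at 255, 98.0 and 103 CPM against 71.1, 30.3 and 36.1 CPM (1.85, SE 0.13, edgeR adjusted p = 2.64e-06). Both genes were highest in the PBS library in both classes, and in neither gene did the classes overlap. Bnip3, a mitophagy receptor, was at 171, 33.5 and 82.8 CPM against 46.3, 20.5 and 26.8 CPM (1.65, SE 0.19, edgeR adjusted p = 0.000186). Its PD-L1 value in Ccl3-high cells was below the PBS value in Ccl3-low cells. The related Bnip3l (1.05) and Higd1a, a small mitochondrial inner membrane protein (1.02), were also higher. Mif, a cytokine, was at 370.1, 151 and 202 CPM against 107, 76.7 and 109 CPM (1.39, SE 0.17, edgeR adjusted p = 0.000205), without overlap.

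Vegfa, the endothelial growth factor, showed the smallest called difference, 325, 394 and 299 CPM against 250.1, 302 and 267 CPM (0.47, SE 0.11, edgeR adjusted p = 0.0191). Without the PBS library its edgeR adjusted p was 0.0774, and without AI-Exo 0.0502. Hif1a, the oxygen-regulated factor itself, was at 260.1, 255 and 250.3 CPM against 217, 248 and 230.4 CPM and was not called (0.30, edgeR adjusted p = 0.124). Egln1, the main oxygen sensor, was not called at 11.2 to 18.5 CPM over both classes. Ankrd37, an ankyrin repeat gene induced in hypoxia (1.20), and Ddit4, an inhibitor of mTOR signalling (0.90), were higher, and Ndrg1, a stress-induced gene, was not called (0.48, edgeR adjusted p = 0.0864).

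Other genes of the response were called as well. In a list of 30 other hypoxia response genes, 21 were tested, 13 were higher and 0 lower (14 and 0 at an unadjusted p of 0.05, 10 and 0 by DESeq2), led by Ero1l, a disulfide-forming oxidase (2.09), and Gys1, the glycogen synthase (2.05). Of 7 pentose phosphate genes 1 was called, Pgls, which was lower (-0.63). In 24 genes of pyruvate oxidation and the tricarboxylic acid cycle edgeR and DESeq2 called 0, with 5 lower and 0 higher at an unadjusted p of 0.05. Of 7 further glycolysis genes only Hk3, the myeloid hexokinase, was called (1.17).

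Traces of other cells differed between the 2 neutrophil classes too. Transcripts typical of free RNA (haemoglobin, Scgb1a1, Sftpc and Igkc, 7 genes) summed to 258, 175 and 852 CPM in Ccl3-high and to 2048, 2368 and 6218 CPM in Ccl3-low cells, with 6 of the 7 lower. Macrophage markers were detected in both classes, with sums of 871, 400.3 and 861 CPM against 852, 394 and 674 CPM and 2 of 11 tested markers higher. Free RNA could supply at most 0.034 to 17.8 CPM of any one member in Ccl3-high cells. The tumour-like list summed to 25.6, 21.3 and 21.5 CPM against 54.3, 118 and 97.6 CPM, with 3 of 4 tested markers lower, and 7 of 9 tested B cell markers were lower as well. Their part in the result was not tested, and median UMIs per cell were alike, 2399 to 2944 against 2493.5 to 2861. Without the library block edgeR called 9 members.

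**Figure D2:**
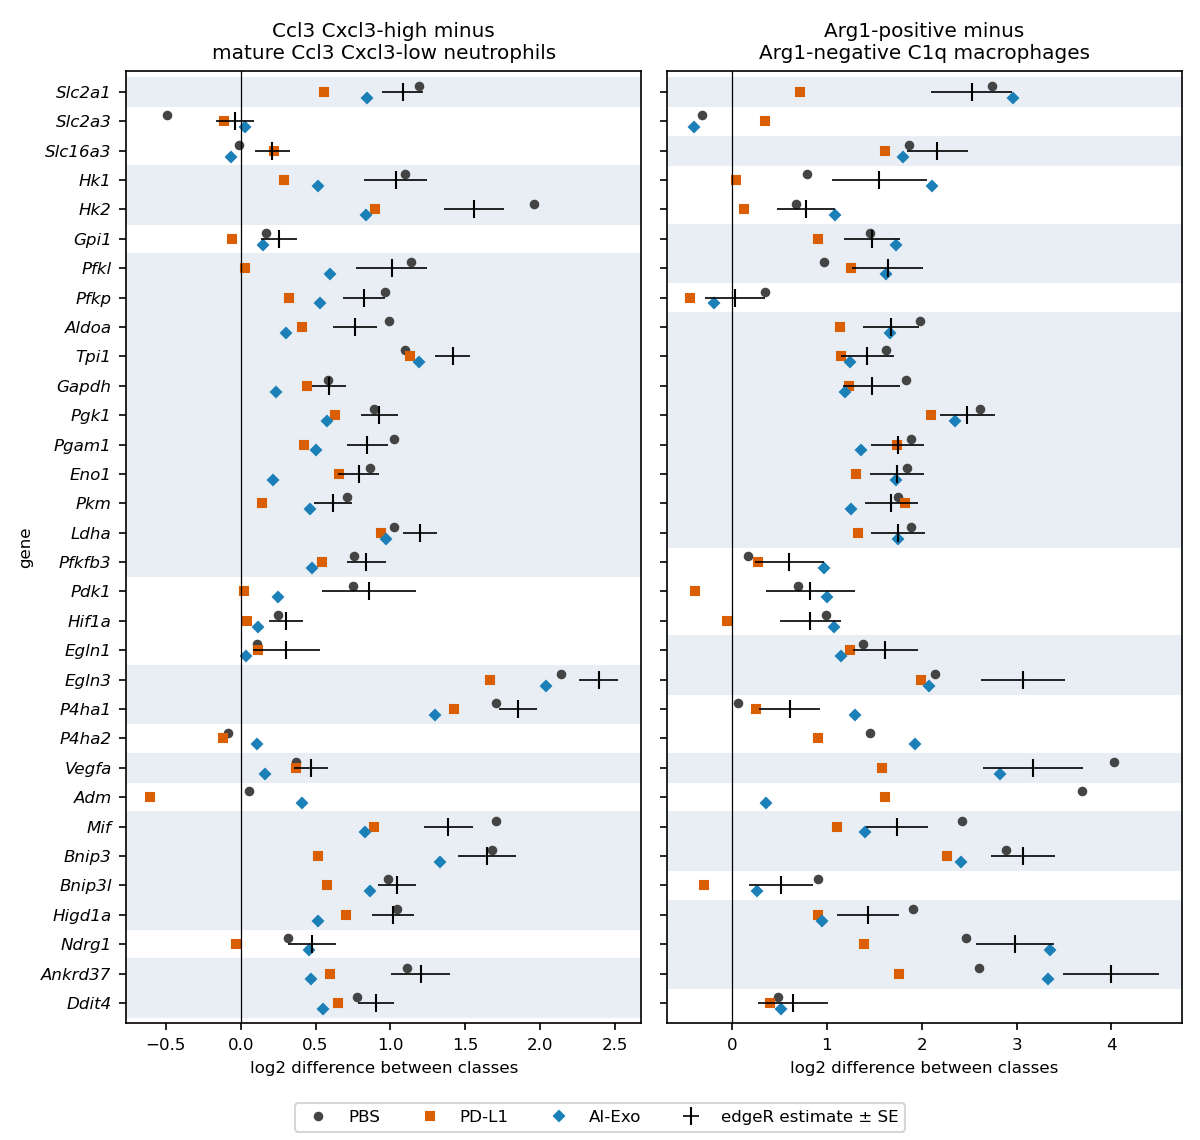
Log2 differences between classes for the 32 genes (vertical axis): Ccl3-high minus mature Ccl3-low neutrophils on the left and Arg1-positive minus Arg1-negative C1q macrophages on the right. Points are the libraries, on the log2(CPM + 10) scale; crosses are edgeR estimates with SE bars, which use no such offset and therefore lie further out for low genes; shaded genes were called. On the left 23 genes are shaded and on the right 20.

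Within mature neutrophils the genes were also followed along 4 levels of Ccl3 plus Cxcl3 content (none, under 1000, 1000 to under 4000, and 4000 CPM or more). These levels divide the same cells as the Ccl3-high and mature Ccl3-low classes, so they are not independent of that comparison. Between the lowest and the highest level, 30 of 32 genes were higher at the top in PBS, 28 genes in PD-L1 and 27 in the AI-Exo library. Fewer genes were higher at every step, 15, 6 and 10, and in each library 0 genes were lower at every step. These bins were not tested, and the same counts over all genes were not made. Most of the difference lay in the top level: Egln3 in PBS was at 37.4, 56.8, 111 and 357 CPM along the 4 levels, and Hk2 at 46.7, 68.3, 76.4 and 408 CPM. Slc2a3 ran the other way in PBS, from 429 CPM at the lowest level through 327 and 328 CPM to 244 CPM at the top.

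**Figure D3:**
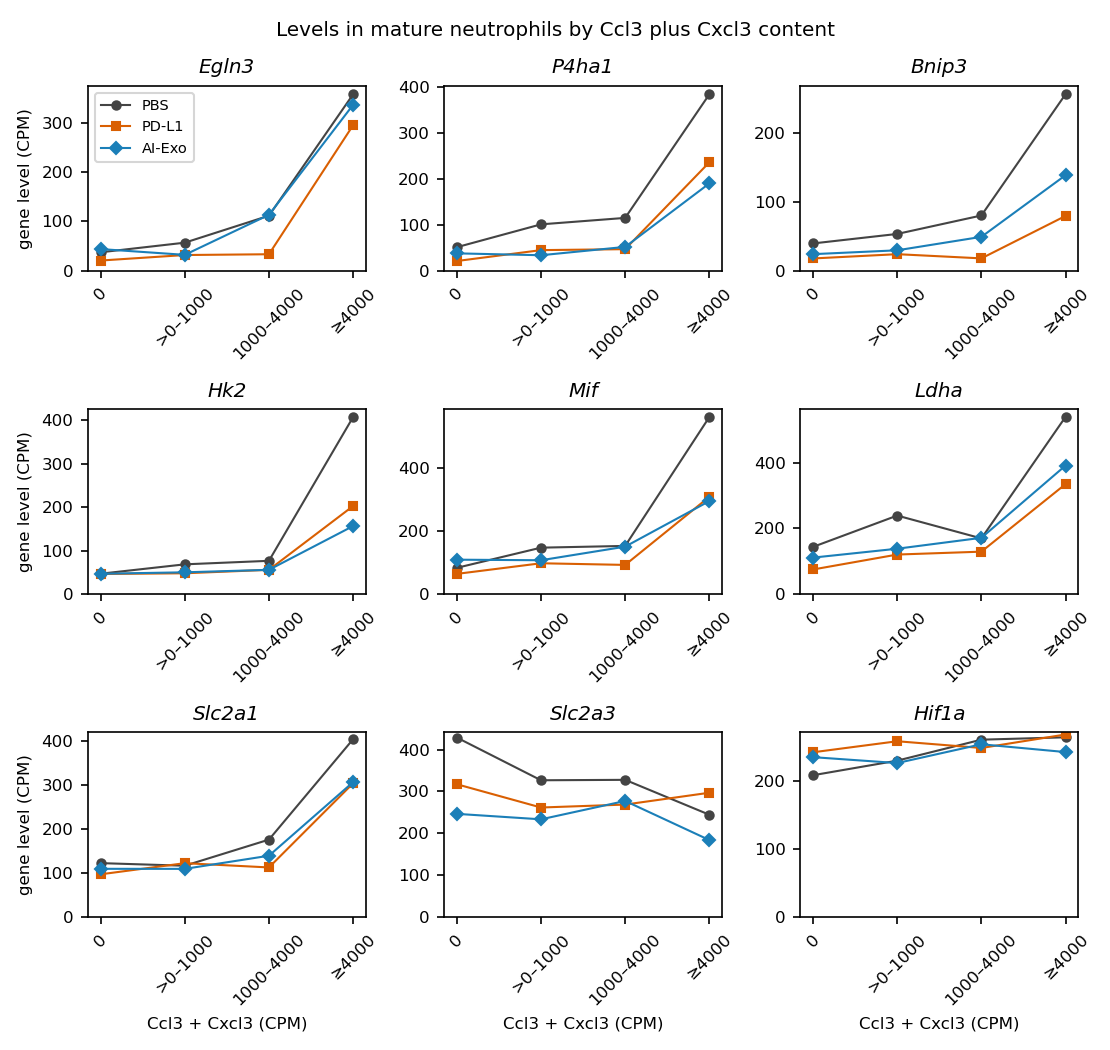
Level (CPM, vertical axes from 0) of 9 genes in mature neutrophils at 4 levels of Ccl3 plus Cxcl3 content (horizontal axes, CPM per cell), with 1 line per library. Most lines bend upward at the last level; Hif1a stays between 208 and 268 CPM and Slc2a3 has no common slope.

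Immature granule-rich neutrophils differed from the mature Ccl3-low ones in both directions. Of 30 members tested, 7 were higher and 6 lower, against 9.38% and 12.0% of 9265 genes, with medians of -0.03 over the members and -0.09 over all genes. The higher members were enzymes of glycolysis or its regulator: Gpi1, Ldha, Pgk1, Pfkfb3, Aldoa, Hk2 and Gapdh. The lower ones were Ankrd37, Bnip3, Mif, Slc16a3, Slc2a1 and Vegfa, none of which is a glycolytic enzyme. The comparison shares its Ccl3-low class with the one above, so the 2 sets of differences are not independent. Median UMIs per cell were 6793, 7234.5 and 11176 in immature cells against 2493.5, 2708.5 and 2861 in mature Ccl3-low cells. Free RNA tracers summed to 215, 106 and 87.3 CPM against 2048, 2368 and 6218 CPM. The part of depth or free RNA in the members' levels was not tested.

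Gpi1 was at 355, 241 and 304 CPM in immature cells and at 165, 99.9 and 123 CPM in mature Ccl3-low cells (log2 difference 1.28, SE 0.16, edgeR adjusted p = 1.64e-05). Ldha was at 277, 244 and 303 CPM against 177, 92.0 and 124 CPM (1.18), and Gapdh at 822, 693 and 935 CPM against 590, 418 and 590 CPM (0.68), both without overlap. Pgk1 differed by 0.95, Pfkfb3 by 0.73, Aldoa by 0.70 and Hk2, at 72.9 to 84.2 CPM against 46.6 to 56.3 CPM, by 0.70. Slc2a1 was lower at 45.7, 86.4 and 61.3 CPM against 123, 107 and 109 CPM (-0.74), and Slc16a3 lower at 147, 193 and 149.5 CPM against 248, 310 and 333 CPM (-0.84). Ankrd37 fell to 3.26, 6.64 and 3.72 CPM against 24.5, 11.5 and 17.8 CPM (-1.96, SE 0.46, edgeR adjusted p = 0.00488). Mif was at 94.6, 17.7 and 49.7 CPM against 107, 76.7 and 109 CPM (-0.96), Bnip3 at 32.6, 4.43 and 13 CPM against 46.3, 20.5 and 26.8 CPM (-0.98), and Vegfa at 170, 202 and 143 CPM against 250.1, 302 and 267 CPM (-0.65). Slc2a3 (0.07) and Hif1a (-0.34, edgeR adjusted p = 0.172) were not called.

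Of 7 pentose phosphate genes, 5 were higher in immature cells, led by Tkt, the transketolase, at 466, 368 and 498 CPM against 91.4, 63.8 and 109 CPM (2.40), and G6pdx, the entry enzyme (2.08). In the dividing list 7 of 8 markers were higher in immature cells, with sums of 473, 184 and 431 CPM against 43.7, 120 and 126 CPM, and what this adds to the enzyme levels was not tested. Without the AI-Exo library, which holds 160 of the immature cells, edgeR called 3 members higher and 0 lower. The 6 lower calls then had edgeR adjusted p of 0.212 to 0.358, so these calls rest on that library; their differences stayed negative. DESeq2 on all libraries called 8.

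Arg1-positive macrophages, gated on at least 2 UMIs of arginase 1, were set against macrophages with C1q transcripts and no Arg1 UMI. Of 29 members tested, 20 were higher and 0 lower, where 2.32% of 7596 genes were higher and 1.21% lower. At an unadjusted p of 0.05, 23 were higher and 0 lower, and DESeq2 called 19 and 0. The median log2 difference was 1.64 over the members and -0.05 over all genes tested. Slc2a3, P4ha2 and Adm were too low to test.

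All of the transporters tested and 10 of 13 enzymes were higher in Arg1-positive cells. Slc2a1 was at 287, 132 and 442 CPM against 34.3, 76.5 and 47.9 CPM (2.53, SE 0.43, edgeR adjusted p = 0.00296), and Slc16a3 at 113, 141 and 95.1 CPM against 23.7, 39.5 and 20.2 CPM (2.16). Pgk1, the phosphoglycerate kinase, led the enzymes with 912, 766 and 772 CPM against 140.3, 171 and 144 CPM (2.48, SE 0.29, edgeR adjusted p = 0.000132). Its 3 Arg1-positive values were close together and lay far above every C1q value. Gapdh was at 3451, 2881 and 2876 CPM against 958, 1217 and 1252 CPM (1.47), and Ldha at 864, 696 and 716 CPM against 227, 271 and 206 CPM (1.75). Pgam1, Eno1, Aldoa, Pkm, Pfkl, Gpi1 and Tpi1 had log2 differences of 1.43 to 1.75, and in none of them did the classes overlap. Hk2 was not called at 133, 115 and 224 CPM against 79.1, 104 and 100.1 CPM (0.78, edgeR adjusted p = 0.26), nor were Hk1, Pfkp and the regulators Pfkfb3 and Pdk1.

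The largest difference was in Ankrd37, at 101, 44.1 and 112 CPM against 8.16, 5.98 and 2.13 CPM (3.99, SE 0.50, edgeR adjusted p = 0.000246). Vegfa was at 220.0, 432 and 392 CPM against 4.08, 138 and 46.9 CPM (3.17, SE 0.53, edgeR adjusted p = 0.00255), and its C1q values spread more than its Arg1-positive values. Egln3 (84.3, 44.1 and 72.8 against 11.4, 3.59 and 9.59 CPM) and Bnip3 (204, 159 and 162 against 18.8, 25.1 and 22.4 CPM) each differed by 3.07. Ndrg1 differed by 2.98, Mif (925, 643 and 716 against 165, 294 and 265 CPM) by 1.74, Egln1 by 1.62 and Higd1a by 1.43. Hif1a, at 216, 141 and 274 CPM against 104, 147 and 125 CPM, was not called (0.83, edgeR adjusted p = 0.245), and P4ha1, Bnip3l and Ddit4 were not called with differences of 0.52 to 0.65. Adm, the gene of the vasodilator peptide adrenomedullin, was at 139.8, 35.2 and 5.60 CPM against 1.63, 4.78 and 2.13 CPM, so its level in Arg1-positive cells rested on the PBS library. P4ha2 had 0 UMIs in Arg1-negative C1q cells of all 3 libraries and 23 in Arg1-positive cells, at least 18.2-fold higher against a floor of 3 UMIs over the 3 libraries.

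Of 22 tested genes of the other hypoxia response list, 6 were higher and 0 lower (11 and 0 at an unadjusted p of 0.05, 6 and 0 by DESeq2), led by Hilpda, a lipid droplet protein, at 818, 634 and 1220 CPM against 36.7, 80.1 and 145 CPM (3.54). edgeR and DESeq2 called 0 of 7 pentose phosphate genes, with 1 higher and 0 lower at an unadjusted p of 0.05.

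The macrophage marker list summed to 11471, 15268 and 8774 CPM in Arg1-positive against 24107, 24367 and 15772 CPM in C1q cells, and edgeR and DESeq2 called 0 of its 12 genes (9 lower and 0 higher at an unadjusted p of 0.05). The tumour-like list summed to 231, 35.2 and 16.8 CPM against 33.4, 37.1 and 22.4 CPM. Within it, Hmga2 was at 49.35, 8.81 and 11.19 CPM in Arg1-positive against 1.63, 1.2 and 1.06 CPM in C1q cells. Rhox5 (81.2 CPM) and Krt8 (23.7 CPM) were detected in Arg1-positive cells of PBS and were at 0 in PD-L1 and AI-Exo. Only 1 marker of the tumour-like list was tested (log2 difference 1.86), and it was not called. The part of tumour-like transcripts in the members' levels was not tested. The PD-L1 class held 7 cells: without PBS edgeR called 12 members, without AI-Exo 7, and without PD-L1 22. Without AI-Exo, Slc2a1, Gapdh, Ldha, Mif and Vegfa kept log2 differences of 1.60 to 3.23 with edgeR adjusted p of 0.108 to 0.197. Without PBS, Gapdh and Mif were not called either (edgeR adjusted p = 0.0924 and 0.0818).

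The neutrophil and the macrophage comparison had 16 called members in common, 69.6% of the 23 neutrophil calls and 80.0% of the 20 macrophage calls. Of the 29 members tested in both, 69.0% were higher in the macrophage and 79.3% in the neutrophil comparison, which are close to the shares in the overlap, so the overlap is no result of its own. Over all 7143 genes tested in both, 65 were higher in both, 14.7% of 443 neutrophil calls and 40.4% of 161 macrophage calls. Shared members were Slc2a1, Egln3, Vegfa, Mif, Bnip3, Higd1a, Ankrd37 and 9 glycolytic enzymes. Hk1, Hk2, Pfkp, Pfkfb3, P4ha1, Bnip3l and Ddit4 passed the test in neutrophils only and Slc16a3, Gpi1, Egln1 and Ndrg1 in macrophages only, and whether these differences differ between the cell types was not tested.

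Tumour-like cells and Arg1-negative C1q macrophages differed in most genes, so a call says little there. Of 30 members tested, 17 were higher in tumour-like cells and 3 lower, against 30.0% and 31.3% of 9206 genes, and the median was 0.95 over the members (also with P4ha2 at its bound) and 0.04 over all genes. Adm was at 130.5, 101 and 94.1 CPM against 1.63, 4.78 and 2.13 CPM (5.0, SE 0.36, edgeR adjusted p = 1.61e-07). Egln3 was at 133, 131 and 107 CPM against 11.4, 3.59 and 9.59 CPM (3.53), Ndrg1 at 233, 195 and 173 CPM against 28.6, 27.5 and 9.59 CPM (2.92) and Pgk1 at 816, 1300 and 897 CPM against 140.3, 171 and 144 CPM (2.38). P4ha2 was at 19.5, 15.9 and 27.4 CPM against 0 UMIs, at least 22-fold higher.

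Of the 13 glycolytic enzymes 7 were higher in tumour-like cells (Pgk1, Pgam1, Eno1, Pkm, Ldha, Pfkl and Tpi1, at 0.69 to 2.38), Pfkp was lower, and Hk1, Hk2, Gpi1, Aldoa and Gapdh were not called. Whether this differs from the Arg1-positive comparison, which has the same C1q class, was not tested. Gapdh was at 1626, 1393 and 1771 CPM against 958, 1217 and 1252 CPM (0.17), Hk2 at 193, 86.8 and 171 CPM against 79.1, 104 and 100.1 CPM (0.35), and Slc2a1 at 77.5, 67.3 and 114 CPM against 34.3, 76.5 and 47.9 CPM (0.47, edgeR adjusted p = 0.156). Pfkfb3 (16.2 to 20.1 against 34.7 to 48.1 CPM), P4ha1 (48.5 to 68.6 against 80.9 to 132 CPM) and Pfkp (59.0 to 70.8 against 88.1 to 111 CPM) were lower, by -1.42, -1.12 and -0.98. Hif1a was higher, at 335, 260 and 276 CPM against 104, 147 and 125 CPM (0.91), as were Mif (770, 949 and 749 against 165, 294 and 265 CPM, 1.48) and Bnip3 (69.7, 63.7 and 61.1 against 18.8, 25.1 and 22.4 CPM, 1.26). Slc16a3 differed by 2.19, Higd1a by 1.47, Pfkl by 0.99, Pdk1 by 0.74 and Tpi1 by 0.69, and Vegfa was not called (95.6 to 127 CPM against 4.08 to 138 CPM). Egln1, Bnip3l and Ddit4 were not called either, and Ankrd37 (5.31 to 23.2 CPM) and Slc2a3 were not tested. Tumour-like cells held medians of 47441.5 to 53071 UMIs and were higher in 7 of 8 dividing markers. Of the fibroblast list 3 of 4 tested markers were higher, with sums of 287, 326 and 166 CPM against 25.3, 37.1 and 25.6 CPM, and the part of depth, division or other cells in these levels was not tested.

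Members were also compared in 2 further pairs of classes. Between dividing and resting alveolar macrophages the calls were near the background. Of 28 members tested, 2 were higher in dividing cells and 3 lower, against 9.41% and 5.93% of 10309 genes. Ndrg1 was at 17.3, 15.1 and 39.9 CPM against 5.92, 6.56 and 6.82 CPM (1.83, SE 0.30, edgeR adjusted p = 0.00226) and Pgk1 at 135, 115 and 158 CPM against 70.3, 76.5 and 91.3 CPM (0.68). Pfkfb3 (-0.66), Bnip3l (161 to 202 against 253 to 273 CPM, -0.61) and Aldoa (285 to 323 against 355 to 380 CPM, -0.37) were lower. Gapdh (1066 to 1227 against 1021 to 1253 CPM) and Ldha (232 to 277 against 253 to 296 CPM) were not called. Of the alveolar macrophage list 9 of 12 markers were lower in dividing cells, with sums of 12523, 12791 and 12874 CPM against 16991, 15732 and 15346 CPM. Free RNA tracers summed to 4982, 31.2 and 79.9 CPM against 101, 101 and 115 CPM, and the part of either in the members' levels was not tested. Without AI-Exo edgeR called 2 members and without PD-L1 3.

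Classical monocytes carried more of the genes than nonclassical ones. Of 29 members tested, 16 were higher and 3 lower, against 13.3% and 14.1% of 7892 genes, with a median of 0.56 against 0.02. Bnip3 was at 22.6, 8.23 and 25.2 CPM against 5.12, 0 and 4.55 CPM (2.45, SE 0.54, edgeR adjusted p = 0.0021) and Egln3 at 15.2, 8.23 and 20.6 CPM against 5.12, 3.14 and 0 CPM (2.34). Both rest on few counts in nonclassical monocytes, with 3, 0 and 2 UMIs of Bnip3 and 3, 1 and 0 of Egln3. Vegfa differed by 1.45 (62.9, 132 and 106 against 6.82, 44.0 and 70.5 CPM), Mif by 1.38 (118, 162 and 169 against 51.2, 84.9 and 41.0 CPM), Gapdh by 0.90 (1085, 796 and 1170 against 546, 484 and 619 CPM) and Hif1a by 0.81 (149.9, 208 and 208 against 64.8, 148 and 129.7 CPM). Ndrg1, Pgk1, Pkm, Aldoa, Pgam1, Slc2a1, Hk2, Ldha, Gpi1 and Eno1 made up the rest of the higher members, at 0.43 to 1.14. Ddit4 was the strongest in the other direction, at 149.9, 107 and 71.9 CPM against 338, 217 and 139 CPM (-1.04, SE 0.16, edgeR adjusted p = 6.01e-05), followed by Slc16a3 (-0.64) and Bnip3l (-0.51). A further glycolysis gene, Eno3, the muscle enolase, was at 7.45, 6.06 and 8.22 CPM in classical and at 304, 305 and 284 CPM in nonclassical monocytes, while the list member Eno1 was higher in classical cells (0.43). Genes on the marker lists of other cells were also higher in classical monocytes. Of the immature granule-rich neutrophil list 5 of 5 tested markers were higher, with sums of 3999, 528 and 1008 CPM against 981, 138 and 168 CPM. Its granule genes Ltf, Camp and Ngp were at 0.43 to 6.16 CPM in classical monocytes, so the sums came mostly from other genes of the list. In immature granule-rich neutrophils these 3 genes were at 2542 to 27969 CPM. Of the neutrophil list 4 of 9 were higher and 1 lower, with sums of 1263, 719 and 620 CPM against 401, 654 and 608 CPM, and of the dendritic list 3 of 3 were higher, with sums of 278, 736 and 358 CPM against 199.6, 475 and 134 CPM. Their part in the members' levels was not tested. Without the block edgeR called 6 members and without PBS 9.

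Between libraries there was 1 sample per group, so no test was made. Differences are ratios of CPM + 10 on the log2 scale, called by size at 1.5-fold, and brackets give exact Poisson 95% intervals of the summed counts, which cover counting error only. The 2 comparisons below share the PBS library, so an extreme value in PBS enters both.

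In Ccl3-high neutrophils 23 of 30 measured members (10 CPM or more in 1 of the libraries) were lower in PD-L1 than in PBS and 0 were higher, where 9.52% of 6415 genes were lower and 5.91% higher. The median ratio was -0.79 over members and -0.09 over all genes. Bnip3 went from 171 CPM in PBS (151 to 192) to 33.5 CPM in PD-L1 (25 to 44), a log2 ratio of -2.05. P4ha1 stood at 255 CPM (231 to 281) and 98.0 CPM (83.0 to 115), and Pfkl, the liver-type phosphofructokinase, at 58.8 CPM (47.4 to 72.1) and 18.0 CPM (12 to 26.1), with ratios of -1.30 and -1.29. Among the genes followed throughout, Hk2 (248 to 95.4 CPM), Mif (370.1 to 151 CPM), Ldha (369 to 186 CPM), Slc2a1 (293 to 162 CPM) and Gapdh (890 to 572 CPM) were lower in PD-L1 past 1.5-fold. Hif1a (260.1 and 255 CPM), Slc2a3 (277 and 274 CPM), Vegfa (325 and 394 CPM) and Slc16a3 (246 and 363 CPM) were not.

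AI-Exo against PBS gave 9 of 30 lower and 0 higher in the same class, against 3.96% and 4.54% of 6540 genes. Hk2 was at 93.6 CPM (79.5 to 109) against 248 CPM (224 to 274) in PBS, a ratio of -1.32. P4ha1 was at 103 CPM (88.3 to 120) with a ratio of -1.23, and Bnip3 at 82.8 CPM (69.6 to 97.8) with a ratio of -0.96. Mif, Ankrd37, Ddit4, Eno1, Pfkl and Hk1 were the other 6, and Slc16a3 had the highest ratio, 0.35.

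The chemokines that define this class also differed between libraries: Ccl3 plus Cxcl3 summed to 9107, 4180 and 4956 CPM within it. The ratios were therefore taken again, as a comparison added after the data were seen, in mature neutrophils with 4000 CPM or more (314, 149 and 212 cells). There 12 of 30 members were lower in PD-L1 and 0 higher, against 15.7% and 11.2% of 6209 genes, with a median of -0.41 over members and -0.07 over all genes. In AI-Exo 12 of 31 were lower and 2 higher, against 7.69% and 10.5% of 6359 genes, with medians of -0.43 and 0.04. At that level Bnip3 was at 257, 79.7 and 139 CPM, Hk2 at 408, 203 and 157 CPM and Mif at 563, 309 and 295 CPM, all highest in PBS, while Egln3 was at 357, 295 and 336 CPM. Above this higher chemokine level the PD-L1 count was 12 in place of 23.

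**Figure D4:**
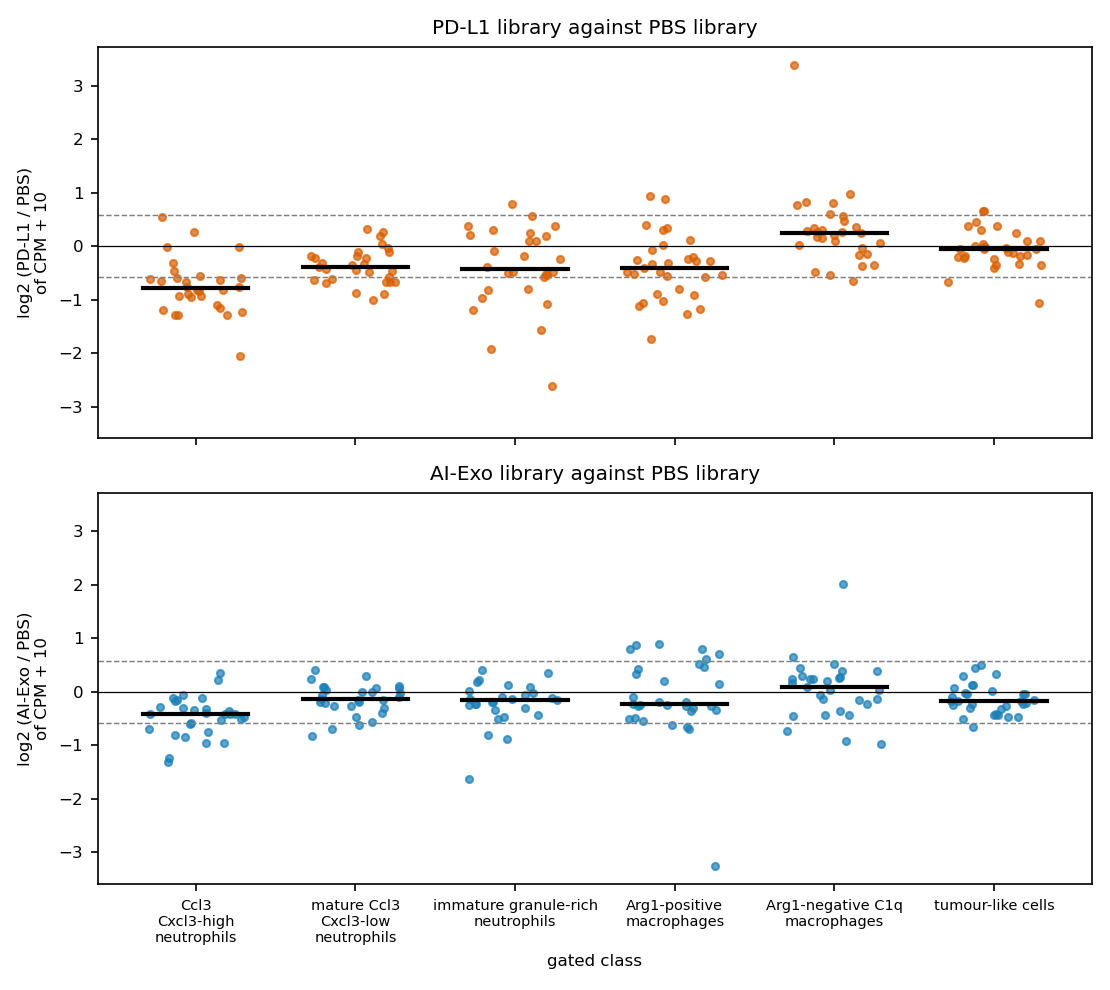
Log2 ratios of CPM + 10 for the member genes (points) in 6 classes (horizontal axis), PD-L1 against PBS above and AI-Exo against PBS below; bars are medians over members and dashed lines mark 1.5-fold. The bar of Ccl3-high neutrophils lies lowest in both panels, at -0.79 and -0.42, and the lone high point in Arg1-negative C1q macrophages is Vegfa.

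Mature Ccl3-low neutrophils showed the same direction at a smaller size. In PD-L1 9 of 29 members were lower and 0 higher, against 3.10% and 3.67% of 6733 genes, and in AI-Exo 3 of 29 were lower and 0 higher, against 2.66% and 4.57% of 6985 genes. P4ha1 was at 71.1, 30.3 and 36.1 CPM, the lowest ratio in both (-1.01 and -0.82). Ldha was at 177 CPM (163 to 191) in PBS and 92.0 CPM (84.4 to 100.1) in PD-L1, and Bnip3l at 110.3 CPM (99.4 to 122) and 64.3 CPM (57.9 to 71.2). In AI-Exo, where P4ha1, Slc2a3 and Bnip3 were the 3, Slc2a3 was at 239.8 CPM (226 to 254) against 394 CPM (373 to 416), and Slc16a3 had the highest ratio, 333 against 248 CPM (0.41). Scaling by size factors moved the median of all genes by -0.17 in PD-L1 against PBS in this class, and with them 4 members in place of 9 were lower.

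The immature cells were few. Their lower calls were near the background of all genes and their higher calls were below it. The median ratio in PD-L1 was -0.437 over members and -0.135 over all genes, and in AI-Exo -0.15 and 0.04. In PD-L1 8 of 28 members were lower and 1 higher, against 26.4% and 13.9% of 6884 genes, and in AI-Exo 3 of 27 were lower and 0 higher, against 9.36% and 14.1% of 7097 genes. P4ha1 had the lowest ratios, with 24 UMIs in PBS (78.3 CPM, 50.1 to 117), 2 in PD-L1 (4.43 CPM, 0.536 to 16) and 40 in AI-Exo (18.6 CPM, 13.3 to 25.3), and Mif came next at 94.6, 17.7 and 49.7 CPM, then Ndrg1 at 68.5, 24.4 and 45.1 CPM in the PD-L1 comparison. Slc2a1 was the gene higher in PD-L1, with 14 UMIs (45.7 CPM, 25 to 76.6) in PBS and 39 (86.4 CPM, 61.4 to 118) in PD-L1.

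In Arg1-positive macrophages, a class of 55, 7 and 14 cells, the counts lay near the background or below it. Median ratios were -0.40 over members and -0.06 over all genes in PD-L1, and -0.23 and 0.02 in AI-Exo. In PD-L1 2 of 31 members were higher and 9 lower, against 20.8% and 26.3% of 8401 genes, and in AI-Exo 6 were higher and 4 lower, against 21.0% and 20.1% of 8782 genes. Adm went from 136 UMIs (139.8 CPM, 117 to 165) in PBS to 4 in PD-L1 (35.2 CPM, 9.60 to 90.2) and 1 in AI-Exo (5.60 CPM, 0.142 to 31.2). Vegfa was at 220.0 CPM (192 to 252) in PBS, 432 CPM (319 to 571) in PD-L1 and 392 CPM (305 to 495) in AI-Exo, higher than PBS in both. Pfkl was at 43.2, 88.1 and 89.5 CPM on 42, 10 and 16 UMIs. The lowest ratios after Adm were in Pdk1 (2 UMIs in PD-L1) and Bnip3l (7 UMIs) for PD-L1, and in Ddit4 (7 UMIs) and Egln1 (11 UMIs) for AI-Exo, where Hk1 (15 UMIs) was among the higher. Scaling by size factors moved the median of all genes by 0.12 in PD-L1 against PBS here, and 17 members in place of 11 were then past 1.5-fold.

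In Arg1-negative C1q macrophages 6 of 29 members were higher in PD-L1 and 1 lower, against 5.56% and 13.3% of 8597 genes, with medians of 0.25 over members and -0.13 over all genes. Vegfa had 5 UMIs in PBS (4.08 CPM, 1.32 to 9.52), 115 in PD-L1 (138 CPM, 114 to 165) and 46.9 CPM in AI-Exo, log2 ratios of 3.39 and 2.01. Slc2a1 was at 34.3 CPM (24.7 to 46.3) in PBS and 76.5 CPM (58.9 to 97.7) in PD-L1, Tpi1 at 174 CPM (151 to 199) and 313 CPM (276 to 354), and Mif at 165, 294 and 265 CPM. In AI-Exo 2 members were higher (Vegfa and Mif) and 3 lower (Ndrg1, Pdk1 and Ddit4) of 29, against 6.61% and 12.3% of 8618 genes. Among the 6 main classes, tumour-like cells had the fewest members past 1.5-fold, and their counts lay near the background of all genes. In PD-L1, with 11 cells, Pgk1 (1300 against 816 CPM) and Higd1a (475 against 296 CPM) were higher, with log2 ratios of 0.66 that became -0.15 and -0.10 when markers counted only from 50 CPM in the gate. Hk2 (86.8 against 193 CPM) and Ankrd37 were lower, so 2 of 31 members were higher and 2 lower, against 5.14% and 10.4% of 8923 genes. In AI-Exo 1 of 31, Bnip3l (56.2 against 94.3 CPM), was lower and 0 higher, against 4.28% and 2.76% of 8799 genes.

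In the largest lymphoid and alveolar classes no member passed 1.5-fold. In resting alveolar macrophages 0 of 24 members passed in PD-L1 and 0 of 25 in AI-Exo, where 1.04% and 3.37% of genes did in either direction. In B cells 0 of 27 passed in each comparison (1.94% and 1.56% of genes), and in non-dividing cells of the T list 0 of 28 and 0 of 29 (1.16% and 2.35%). In classical monocytes Vegfa, Pfkp and Slc16a3 were higher in both PD-L1 and AI-Exo than in PBS, and Vegfa stood at 62.9, 132 and 106 CPM. They were the 3 higher of 29 members in each comparison, against 9.49% and 6.51% of genes. Lower there were 5 in PD-L1 (Bnip3l, Gpi1, Bnip3, Tpi1 and Pkm) and 1 in AI-Exo (Ddit4), against 6.80% and 3.78% of genes.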

How the data were processed

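Droplet libraries of the 10x 3′ v3.1 chemistry were made from non-small cell lung cancer of mice, 1 each for PBS, PD-L1 and AI-Exo, per the labels' protocols. The authors deposited raw UMI counts per gene and barcode, neither normalized nor filtered to cells, for 794333 to 858023 barcodes per library. Cell Ranger 7.1.0 is named per the file headers and 3.0.2 per the submitters' processing notes; the annotation and the handling of intronic reads were not given in the sources used here. Gapdh, Mif, Pgk1 and Eno1 have near-identical copies in the genome, so their counts are uncertain where reads could be split. Of 38 symbols with 2 or more IDs the first was used.

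Barcodes with at least 500 UMIs, 200 genes and at most 20% mitochondrial UMIs were kept. A barcode took the lineage of the highest detected share of 13 marker lists, with at least 3 markers and a lead of 0.1; no member gene is in a gate. Neutrophils with 5 or more of 12 granule genes were immature. Arg1-positive macrophages had 2 or more Arg1 UMIs and Arg1-negative C1q macrophages none and at least 2 of 3 C1q genes. Free RNA was measured in barcodes of at most 100 UMIs. Scrublet's automatic threshold called 1, 0 and 0 doublets, which is no working call, so doublets stayed in, and removal of the 451, 551 and 659 barcodes at a score of 0.15 or more was an alternative.

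Class sums were compared with edgeR 4.0.16 (R 4.3.3, quasi-likelihood, library as block) and DESeq2 1.42.0 as an alternative, and library pairs as ratios of CPM + 10 without a test; gating used Python 3.11.15 and scanpy 1.11.5. The fit was tested on simulated data, drawn with the same spread for every gene, no library effect and changes only in the higher genes. That simulation therefore does not cover members at low levels or a spread that differs between genes. The member genes, lists and tests were chosen with earlier results of these data known, and the lead of 0.1, the subset thresholds and the neutrophils at 4000 CPM or more after the data were seen. All members are accounted for. The rule for printing values named the 4 largest called changes per direction of a class comparison. It also named the 3 largest ratios per direction of a library comparison at 50 CPM or more. Slc2a1, Slc2a3, Hk2, Gapdh, Ldha, Hif1a, Vegfa, Bnip3, Adm and Mif were added to these. Not all of these values are printed. Some genes have only a range or a log2 difference, or no value, among them genes in the alveolar macrophage and monocyte comparisons.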

Additional observations from a re-analysis of the deposited data

Results flagged for a closer look

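Of the member genes, 7 lay past 1.5-fold upward in one cell class and past 1.5-fold downward in another when PD-L1 was set against PBS, and 5 did so when AI-Exo was set against PBS. Of genes at 50 CPM or more in at least 2 of the 6 main classes, that is 24.1% of 29 members against 8.53% of 4218 genes for PD-L1, and 16.7% of 30 members against 5.20% of 4173 genes for AI-Exo. With 1 library per group the difference between classes was not tested. Values are log2 ratios of CPM + 10, the highest and the lowest over the 6 main classes. In PD-L1 against PBS, Slc2a1 was at 0.97 in Arg1-negative C1q and at -1.06 in Arg1-positive macrophages. Aldoa was at 0.77 and Tpi1 at 0.82 in Arg1-negative C1q macrophages, and at -0.94 in Ccl3-high and -0.64 in mature Ccl3-low neutrophils. Mif was at 0.80 in Arg1-negative C1q macrophages and at -1.92 in immature neutrophils. Pfkl was at 0.88 in Arg1-positive macrophages and at -1.29 in Ccl3-high neutrophils. Pgk1 and Higd1a were each at 0.66 in tumour-like cells, against -0.96 in immature neutrophils for Pgk1 and -0.91 in Arg1-positive macrophages for Higd1a. With markers counted only from 50 CPM in the gate, the tumour-like values became -0.15 and -0.10, so neither gene was then past 1.5-fold upward in that class.

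In AI-Exo against PBS, 3 enzymes of early glycolysis were higher in Arg1-positive macrophages and lower in Ccl3-high neutrophils: Hk1 (0.88 and -0.60), Hk2 (0.71 and -1.32) and Pfkl (0.90 and -0.69). P4ha1 was at 0.80 in Arg1-positive macrophages and at -1.63 in immature neutrophils. Mif was at 0.65 in Arg1-negative C1q macrophages and at -0.84 in Ccl3-high neutrophils. The Arg1-positive values rest on 7 cells in PD-L1 and 14 in AI-Exo.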

How the results depend on the processing

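No library group had a second sample, so every library ratio is a value of 1 library per group, and intervals hold counting error only. Leaving out each library in turn gave 19 to 25 called members (23 with all) for Ccl3-high against mature Ccl3-low neutrophils, 3 to 13 (13) for immature neutrophils, 7 to 22 (20) for Arg1-positive macrophages, 17 to 25 (20) for tumour-like cells, 2 to 5 (5) for dividing alveolar macrophages and 9 to 17 (19) for classical monocytes. Without the library block, which pairs the classes within a library, 9 members were called in Ccl3-high neutrophils and 6 in classical monocytes. DESeq2 called 8 in immature neutrophils and 11 in classical monocytes, and a gate lead of 0.2 gave 12 in the latter. These counts do not say that the same genes were called, and why they moved was not tested.

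Of the library counts, PD-L1 against PBS in mature Ccl3-low neutrophils (9) became 2 with a pseudocount of 50 CPM and 4 with size factors, in immature neutrophils (9) 14 with the mean of per-barcode CPM, in Arg1-positive macrophages (11) 17 with size factors, and in Arg1-negative C1q macrophages (7) 4 with the mean of per-barcode CPM. AI-Exo against PBS became 1 (from 3) in mature Ccl3-low neutrophils with a pseudocount of 50 CPM. In immature neutrophils (3) it became 5 with a pseudocount of 1 CPM or per-barcode CPM and 1 with 50 CPM. In Arg1-positive macrophages (10) it became 3 with 50 CPM and 6 without a macrophage margin. In Arg1-negative C1q macrophages (5) it became 1 with 50 CPM and 2 with markers counted from 50 CPM. In tumour-like cells (1) it became 4 with 1 CPM, a lead of 0.2 or markers from 50 CPM, 2 with per-barcode CPM and 0 with 50 CPM. The macrophage margin and the 50 CPM marker rule were added after the data were seen. Changes of sign were seen for Adm in PD-L1 against PBS in Arg1-positive macrophages (0.015) and Pfkl in Arg1-negative C1q macrophages (-0.37), both with per-barcode CPM, and for Pgk1 (-0.15) and Higd1a (-0.10) in PD-L1 against PBS in tumour-like cells with markers from 50 CPM. Over the 6 class comparisons and each library left out in turn, 230 of 300 member calls were kept, 70 were lost, 16 members gained a call and 0 changed direction. The largest losses were 14 of 20 in Arg1-positive macrophages and 10 of 13 in immature neutrophils without AI-Exo, and 10 of 19 in classical monocytes without PBS.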
